A study of Homo sapiens with 6 samples.

Results

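The genes described here are 10 that carry glucose into the cell and break it down to lactate. They are the glucose transporters SLC2A1 and SLC2A3, the hexokinases HK1 and HK2, and the enzymes GPI, GAPDH, PGK1, ENO1, PKM and LDHA. They were chosen by name, and all 10 were among the 60709 genes with values in the deposited table. Messenger RNA was sequenced in SH-SY5Y, a human neuroblastoma cell line with features of immature sympathetic neurons. The study asked how these cells respond to a fumarate attached to a peptide derived from NRF2, the transcription factor of antioxidant genes. The labels list 3 control wells that received 10 uL of DMSO, the solvent. They also list 3 wells that received DMSO together with the peptide-linked fumarate in water, 2 mg in 600 uL of which 200 uL were added. All wells held 2 mL of medium, were grown to 80% confluence and were lysed after 5 h. The labels mention no addition of water to the control wells.

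Only the control samples could be matched to columns of the table. Its 6 columns are numbered 1 to 6, the control samples carry the numbers 4, 5 and 6 in the labels, and the peptide samples carry 13, 14 and 15. Columns 4, 5 and 6 are called control replicates 1, 2 and 3. The other 3 columns carry no sample's number and were not used, so no difference between treated and control cells is given. If the columns had been numbered independently of the labels, the name control would not hold. Totals were 10683037, 11397407 and 8887854 counts in replicates 1, 2 and 3. The labels do not say whether the wells were separate cultures, so every SD measures the spread between these 3 samples, which may be technical. Every pair of libraries differed beyond sampling noise, with a chi-square over genes, divided by its degrees of freedom, of 2.21 for replicates 1 and 2, where noise alone gives about 1. They were counted as 3 samples. Replicate 3 stood apart, with values of 10.2 and 9.21 in its pairs, and with 6.25% of its counts from mitochondrially encoded genes against 4.11% and 3.83% in replicates 1 and 2. The share of counts, the family shares and the median coefficient of variation are given with and without it. Of 11 noradrenergic neuroblast markers, 10 reached 10 counts in all 3 libraries and TH had 0 counts in each. Their summed level was 3526 to 3874 CPM (counts per 1000000 counts of the library, TMM-scaled). Summed levels were 1.58 to 2.43 CPM for 5 blood markers, 1.03 to 1.47 CPM for 3 epithelial markers, at most 0.438 CPM for 2 astrocyte markers and at most 0.561 CPM for 2 liver markers. The 6 fibroblast or mesenchymal markers summed to 333 to 373 CPM, of which COL3A1 gave 316 ± 21.0 CPM (SD, n = 3), and PRRX1 had 0 counts.

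Glycolysis starts when a transporter of the SLC2A (GLUT) family lets glucose in along its gradient and a hexokinase phosphorylates it, which keeps it in the cell. Further enzymes split the sugar, oxidise the triose, make ATP and yield pyruvate. Lactate dehydrogenase reduces pyruvate to lactate and restores the NAD+ that GAPDH consumes. Neurons are known for the transporter GLUT3, the product of SLC2A3, and dividing tumour cells for GLUT1, HK2 and LDHA. The hypoxia factor HIF1 is known to drive several of these genes.

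Because the study concerns NRF2, and because HIF1 and E-box factors are textbook regulators of glycolysis, the 250 bases before the RefSeq start sites (GRCh38.p14) were searched for the letters of their sites. RefSeq entries were found for 9 of the 10 genes, with 17 start sites. The motif ACGTG, which lies within HIF1 sites and within the E-box CACGTG, was searched on both strands. It was in 6 of the 17 windows, those of GAPDH, GPI, HK2, LDHA and PGK1, against 18.5% of all 35116 windows. The motif TGACNNNGC, the letters of the antioxidant response element bound by NRF2, was in 3 of the 17, those of GAPDH, HK1 and PKM, against 10.9% of all windows. In GAPDH the matches to both motifs overlap. For each of these genes 1 or 2 of the matches are shown as 29-base stretches with the matching letters in capitals, 5′ to 3′ on the strand of the gene. A match describes the letters only.
LDHA, chr11:18394367-18394395, plus strand: gactcccagcgcACGTGgagcagtctgcc
LDHA, chr11:18394465-18394493, plus strand: agcccgactcacACGTGggttcccgcacg
HK2, chr2:74835010-74835038, plus strand: tccggcgagagcACGTGgagagaatcgtg
PGK1, chrX:78104034-78104062, plus strand: gcggcgtgccggACGTGacaaacggaagc
GPI, chr19:34364818-34364846, plus strand: acactgcctgtaACGTGgaaggtgttcga
GAPDH, chr12:6535172-6535200, plus strand: ctctgcggggtcACGTGtcgcagaggagc
HK1, chr10:69334370-69334398, plus strand: agcttgcaggTGACTCAGCttgaatatgg
GAPDH, chr12:6535166-6535194, plus strand, match on the other strand: ttcgcgctctGCGGGGTCAcgtgtcgcag
PKM, chr15:72231304-72231332, minus strand: ctcctgaaggTGACTGCGCccgcggggac

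In GENCODE 29 the LDHA, GPI and PKM stretches overlap an exon of at least 1 transcript of their gene, and the HK2, PGK1, GAPDH and HK1 stretches lie in introns. The LDHA matches begin 184 and 86 bases before the first of its 2 RefSeq starts. The HK1 match begins 234 bases before 1 of its 7 starts. The counts do not show which start was used.

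Together the 10 genes held 0.530%, 0.524% and 0.486% of all counts in replicates 1, 2 and 3, or 0.513 ± 0.0242% (SD, n = 3). GAPDH, PKM and ENO1 gave 75.7 ± 0.705% of these counts. A count of 10 or more in all 3 libraries was found for 9 of the 10, against 22.9% of all genes listed. SLC2A3 was the exception. In whole cultures, fewer cells that express a gene and less RNA per cell cannot be told apart.

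**Figure D1:**
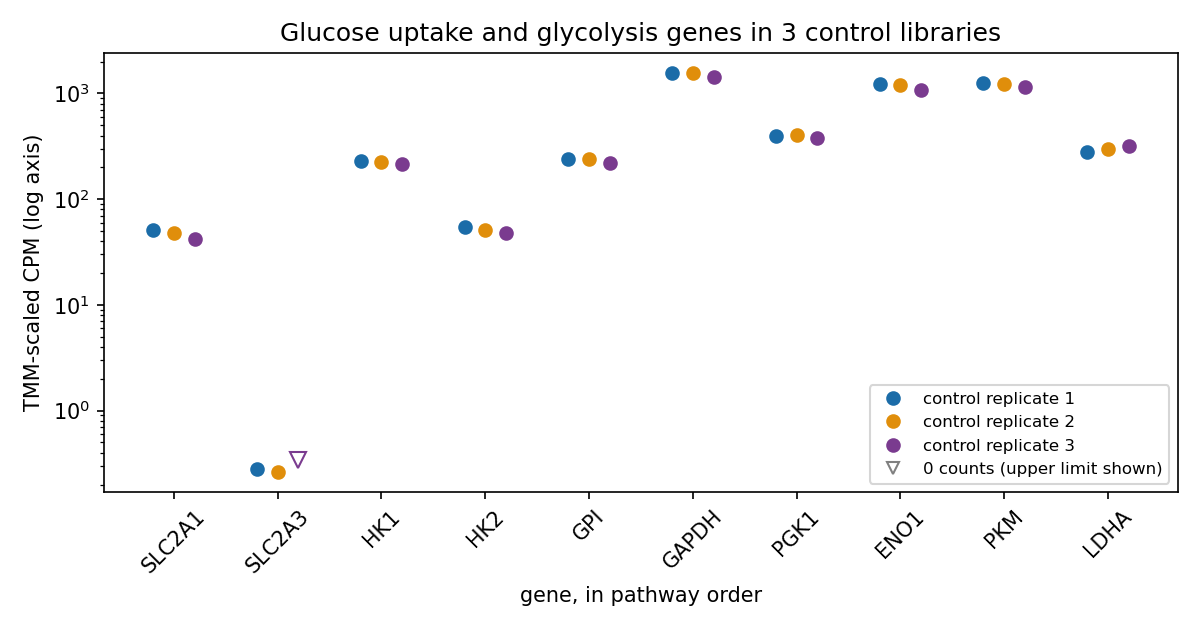
TMM-scaled CPM (log axis) of the 10 genes in pathway order, 1 point per control library, with an open triangle at the upper limit of a library with 0 counts. GAPDH, ENO1 and PKM lie above 1000 CPM in every library, SLC2A3 lies at the floor, and LDHA is the only one of the other 9 with its highest value in replicate 3.

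SLC2A1 encodes GLUT1, the transporter of basal glucose uptake (ENSG00000117394.24, chromosome 1, 42925375 to 42959176, minus strand, GRCh38, gene bounds here and below from GENCODE 29). It had 542, 543 and 372 counts, which is 50.7, 47.5 and 42.0 CPM in replicates 1, 2 and 3. The lowest value was in replicate 3, and the mean was 46.7 ± 4.39 CPM (SD, n = 3). SLC2A3 encodes the neuronal transporter GLUT3 (ENSG00000059804.16, chromosome 12, 7919230 to 7936275, minus strand). It had 3, 3 and 0 counts, where a count of 0 in replicate 3 allows up to 0.339 CPM (counting error only). SLC2A3 was therefore at or under the limit of detection in all 3 libraries. Its near-copy SLC2A14 had 0 counts in each. Of the 75-base stretches in the longest SLC2A3 transcript, 11.5% also occur in another gene, and of the 50-base stretches 21.4%. Most of that transcript could thus be counted without sharing.

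Levels of different genes are compared per length, as TPM, which divides each count by the length of the longest GENCODE 29 transcript and scales each library to 1000000. SLC2A1 was at 36.6 ± 4.36 TPM (SD, n = 3), higher than 62.0% of detected genes, meaning genes that reach 10 counts in all 3 libraries. It was the leading gene of 16 listed genes, the SLC2A family with SLC5A1 and SLC5A2, with 30.6 ± 1.87% of their summed TPM. This is a share of messenger RNA in the list and not of glucose uptake, which was not measured. SLC2A8, which encodes GLUT8, was next with 27.6 ± 2.47%, and its range of 27.9 to 38.5 TPM overlapped the 31.7 to 40.1 TPM of SLC2A1. SLC2A1 remained the leading gene with the 2 other length measures and with no length correction. SLC2A6 followed with 20.5 ± 1.48%, and its place depended on the length. It was ahead of SLC2A8 with coding length and with no length correction, and with the median transcript length it held 8.17%, behind SLC2A8, SLC2A10 and SLC2A11. In this list 7 genes were detected, and 8 had at most 3 counts in any. Among the 8 were SLC2A2, SLC2A5, SLC2A7, SLC2A9 and the sodium-coupled transporters SLC5A1 and SLC5A2. SLC2A4, the insulin-responsive GLUT4, had 17, 28 and 13 counts.

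HK1 encodes the hexokinase of most tissues, including brain (ENSG00000156515.24, chromosome 10, 69269984 to 69401884, plus strand). It had 228, 226 and 213 CPM in replicates 1, 2 and 3, a mean of 222 ± 7.75 CPM (SD, n = 3). HK2 encodes the inducible isoenzyme of muscle and tumours (ENSG00000159399.10, chromosome 2, 74833981 to 74893359, plus strand). It had 54.7, 50.9 and 48.0 CPM, a mean of 51.2 ± 3.36 CPM. The count ratio of HK1 to HK2 was 4.16, 4.43 and 4.44. Per length, HK1 was at 159 ± 10.1 TPM and HK2 at 25.5 ± 2.27 TPM, and their ranges did not overlap. HK1 held 84.9 ± 0.577% of the hexokinase TPM and HK2 held 13.5 ± 0.413%. HK3 had at most 6 counts, and HKDC1 had 0 in each library.

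GPI turns glucose 6-phosphate into fructose 6-phosphate (ENSG00000105220.17, chromosome 19, 34359480 to 34402413, plus strand). It had 241, 239 and 221 CPM, and per length 155 ± 11.8 TPM (n = 3), with a range of 141 to 162 TPM. The range of HK1 was 148 to 165 TPM. HK1 was the higher in each of the 3 libraries, the ranges overlapped, and with coding length the HK1 mean was 0.616 times that of GPI.

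GAPDH, which oxidises glyceraldehyde 3-phosphate, was the highest of the 10 (ENSG00000111640.15, chromosome 12, 6533927 to 6538374, plus strand). It had 16715, 17690 and 12540 counts, or 1563, 1548 and 1416 CPM, with the lowest value in replicate 3. Per length it was at 2310.4 ± 189 TPM (SD, n = 3), above 99.7% of detected genes. PGK1, the first enzyme of the pathway to yield ATP (ENSG00000102144.15, chromosome X, 77910739 to 78129296, plus strand), had 399.9, 400.4 and 375 CPM in replicates 1, 2 and 3, and 230.1 ± 15.1 TPM. The forms active in sperm, GAPDHS and PGK2, had 0 counts in every library.

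ENO1, which forms phosphoenolpyruvate, had 1230.2, 1199 and 1080.2 CPM (ENSG00000074800.16, chromosome 1, 8861000 to 8879250, minus strand). PKM, the pyruvate kinase of most tissues, had 1251, 1216 and 1157 CPM (ENSG00000067225.19, chromosome 15, 72199029 to 72231822, minus strand). Gene counts do not separate its M1 and M2 splice forms. Per length, ENO1 was at 1318 ± 125 TPM and PKM at 1149 ± 76.0 TPM. ENO1 was the higher in each of the 3 libraries, but the ranges overlapped, with a lowest ENO1 value of 1175 and a highest PKM value of 1205 TPM. ENO1 held 85.1 ± 0.143% of the enolase TPM. ENO2, the neuron-specific enolase used as a serum marker of neuroblastoma, held 13.0 ± 0.351% at 201 ± 15.5 TPM, above 94.9% of detected genes. ENO3, the muscle form, held 1.84 ± 0.260%. PKLR, the pyruvate kinase of liver and red cells, had 1, 0 and 0 counts.

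LDHA, which makes lactate from pyruvate (ENSG00000134333.14, chromosome 11, 18394388 to 18408425, plus strand), had 2961, 3445 and 2838 counts. These are 277 CPM in replicate 1, 301 in replicate 2 and 320.5 in replicate 3. LDHA was the only one of the 9 with its highest value in replicate 3. Its mean was 299.6 ± 21.9 CPM, or 355 ± 19.3 TPM (SD, n = 3). LDHA held 92.2 ± 1.16% of the lactate dehydrogenase TPM, and LDHB held 7.66 ± 1.09%. The value of LDHB, with 129, 198 and 164 counts, has a limit given below. LDHC, the testis form, had 0 counts in every library.

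Ordered by TPM, the genes were GAPDH, ENO1, PKM, LDHA, PGK1, HK1, GPI, SLC2A1, HK2 and SLC2A3, and each neighbouring pair stood in this order in all 3 libraries. The ranges overlapped for 2 of the 9 neighbouring pairs, ENO1 with PKM and HK1 with GPI. The mean of GAPDH was 1.75 times that of ENO1, that of PKM 3.23 times that of LDHA, and that of GPI 4.23 times that of SLC2A1. With 3 libraries measured for every gene, an exact paired test could not pass a threshold of 0.05, and none was run. The choice of length decided some places. With coding length the PGK1 mean exceeded that of LDHA (ratio of LDHA to PGK1 0.882) and the GPI mean that of HK1. With the median transcript length these pairs also changed places (0.868 and 0.983), and ENO1 passed GAPDH (ratio of GAPDH to ENO1 0.646). The levels themselves moved too. With the median transcript length GAPDH was at 1140.0 TPM, PGK1 at 460.3 TPM, HK1 at 298 TPM, GPI at 303 TPM, SLC2A1 at 77.2 TPM and HK2 at 9.47 TPM. The TPM values and percentiles given here therefore hold for the longest transcript.

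**Figure D2:**
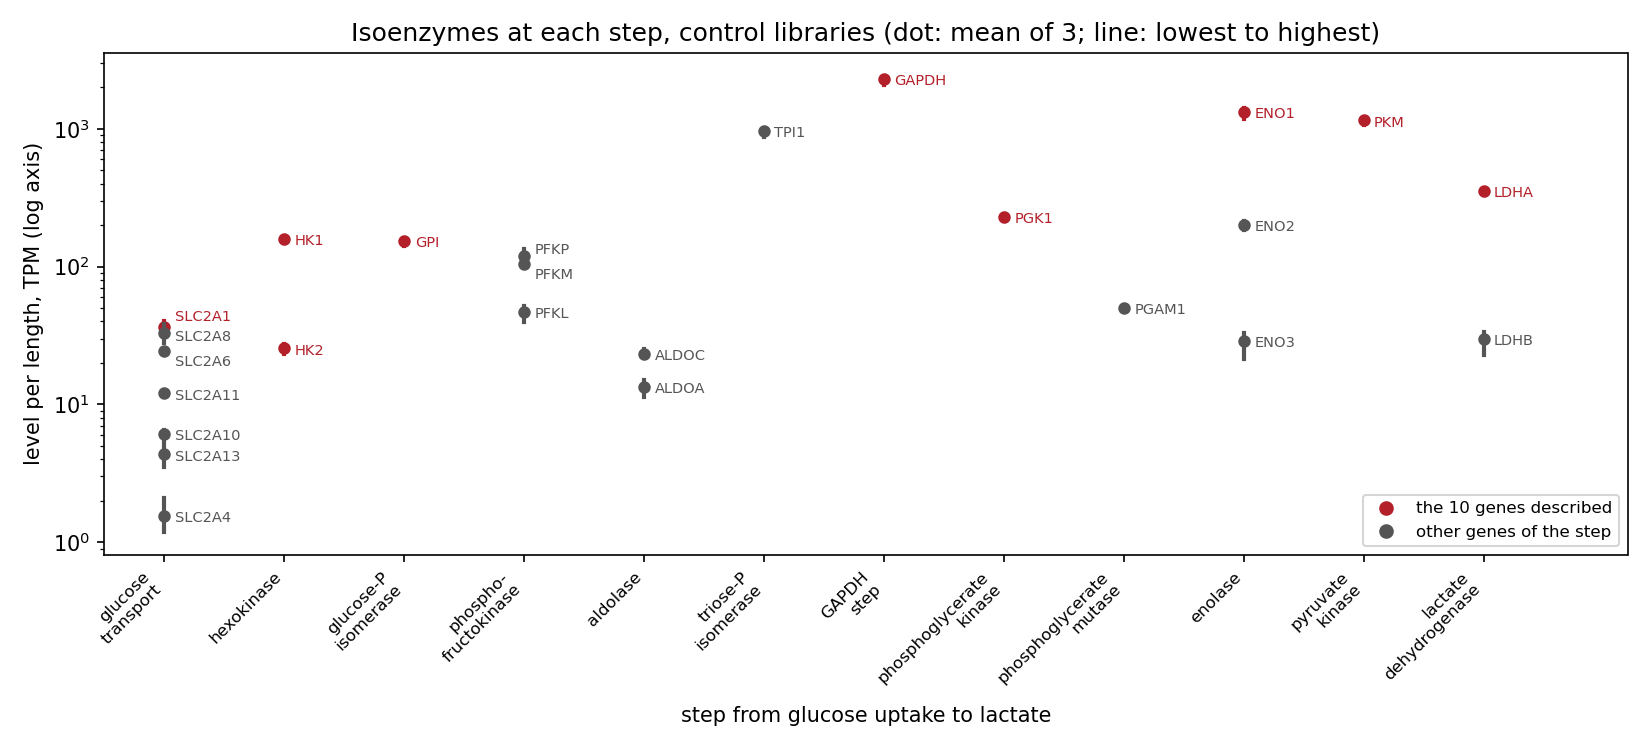
Level per length (TPM, log axis) of detected genes (of the hexokinases HK1 and HK2), by step from glucose uptake to lactate; dots are means of 3 libraries and lines run from the lowest to the highest. GAPDH (2310.4 TPM), ENO1, PKM and TPI1 are the highest genes, and the aldolase and phosphoglycerate mutase steps are the lowest of the enzyme steps.

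The other enzymes of the pathway filled the steps between these genes. TPI1, triosephosphate isomerase, was at 962 ± 72.6 TPM (SD, n = 3). The phosphofructokinases, which commit sugar to glycolysis, were shared between PFKP with 119 ± 15.4 TPM, PFKM with 104 ± 6.46 TPM and PFKL with 46.7 ± 6.23 TPM. PFKP and PFKM changed places with the other length measures, PFKM then holding 47.4% (median transcript length) or 35.2% (coding length) of the family. The aldolases summed to 37.0 ± 3.67 TPM and the phosphoglycerate mutases to 50.5 ± 2.78 TPM, below every other enzyme step. ALDOC, the brain aldolase, was at 23.4 ± 1.73 TPM, ALDOA, the muscle and general form, at 13.5 ± 1.98 TPM, and PGAM1 at 50.3 ± 2.65 TPM.

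ALDOA, LDHB and PGAM1 shared more sequence with other annotated genes than the 10 genes did. Of the 75-base stretches in the longest transcript, 48.7% were also found in another gene for ALDOA, 54.8% for LDHB and 39.8% for PGAM1. For the 10 genes the share ran from 0% (HK1 and PKM) to 11.5% (SLC2A3), with 10.1% for GPI. With 50-base stretches it ran from 0% (HK1) to 21.4% (SLC2A3), and GAPDH had 13.8% against 1.55% at 75 bases. ALDOA, LDHB and PGAM1 then had 52.3%, 58.5% and 43.1%. In GENCODE 29, exons of another gene on the same strand cover 42.3% of the exonic bases of ALDOA (AC093512.2) and 33.4% of those of LDHB (AC010197.2). The ALDOA overlap gene had 31, 28 and 20 counts, and the LDHB one had 1, 0 and 0. How the authors' counting treated reads that fit more than 1 gene is not given in the sources used here, and the part of shared reads in these low values was not tested. The aldolase step, the ALDOC share and its lead over ALDOA, the phosphoglycerate mutase step and the LDHA share are uncertain to that extent. The pseudogenes named after the 10 genes had few counts of their own. These counts cannot show whether reads were lost from the parent genes, since the treatment of shared reads is not known. The 65 GAPDH pseudogenes held 62, 61 and 44 counts, at most 0.371% of the GAPDH count, the HK2 pseudogene held at most 0.706% of the HK2 count, and those of ENO1, PGK1, PKM and LDHA at most 0.203% of their parent's count.

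**Figure D3:**
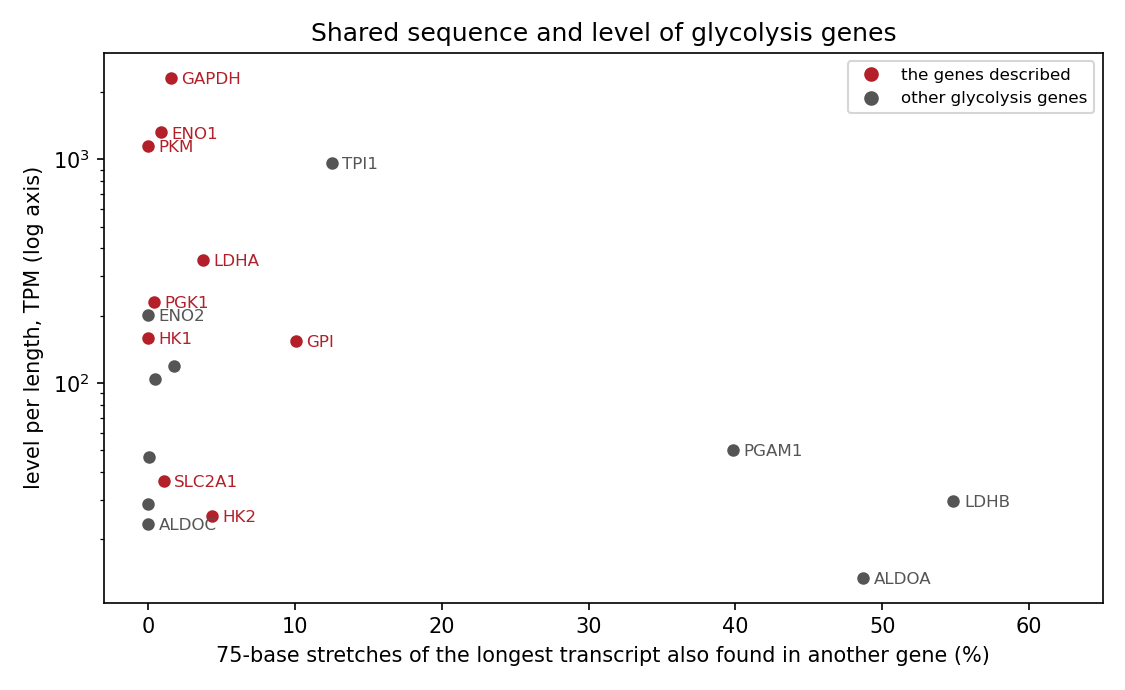
Share of 75-base stretches of the longest GENCODE 29 transcript that also occur in another gene (%) against the mean level per length (TPM, log axis), 1 point per detected glycolysis gene drawn (of the hexokinases HK1 and HK2), plus SLC2A1; the unlabelled points are PFKP, PFKM, PFKL and ENO3. ALDOA, LDHB and PGAM1 lie at 39.8% or more, and the 9 detected genes described lie at or below 10.1%.

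Lists around the pathway were described in the same libraries. The regulators of phosphofructokinase had 4 of 5 genes detected. PFKFB3, which makes the activator fructose 2,6-bisphosphate, was at 40.7 ± 4.76 TPM (SD, n = 3) and highest, but with the median transcript length PFKFB2 was at 55.6 TPM and PFKFB3 at 30.3 TPM. PFKFB1 was lowest with 4, 6 and 7 counts. Of 7 genes for lactate and pyruvate transport, 5 reached the minimum. BSG, the chaperone of the lactate carriers, was at 702 ± 62.4 TPM, the lactate carrier SLC16A1 at 51.6 ± 0.862 TPM and the carrier of glycolytic cells, SLC16A3, at 2.67 ± 0.595 TPM. SLC16A7 had 0 counts in every library. The pyruvate dehydrogenase complex, which takes pyruvate into the mitochondrial cycle, had 5 of 6 genes detected. They ran from DLD, with a range of 92.0 to 111 TPM, to DLAT at 35.5 ± 1.74 TPM. With coding length PDHX was the lowest of them, at 32.9 TPM. The testis form PDHA2 had 0 counts. The 6 kinases and phosphatases of the complex were all detected, and their order depended on the length. PDP1 was highest at 24.4 ± 1.67 TPM and PDK1 lowest at 2.14 ± 0.387 TPM. With the median transcript length PDP2 was highest at 60.9 TPM, PDK4 lowest at 7.93 TPM and PDK1 at 14.2 TPM.

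Gluconeogenesis, the reverse route of liver and kidney, had 4 of 8 genes detected. G6PC3 was highest at 60.1 ± 0.808 TPM, while G6PC1, G6PC2 and PCK1 had 0 counts in every library. Among 6 regulators of glucose uptake, 5 reached the minimum. HIF1A was at 144 ± 17.6 TPM and TXNIP, which restrains glucose uptake, at 141 ± 6.09 TPM, with overlapping ranges. Their order depended on the length, with 91.7 and 144 TPM by coding length and 256 and 102 TPM by median transcript length. MLXIPL, a glucose-sensing transcription factor, was lowest at 1.46 ± 0.674 TPM. Over all 85 genes of the pathway lists, 55 were detected, 24 had at most 3 in any and 14 had 0 in all.

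The 9 detected genes varied little between libraries. Their median coefficient of variation was 5.36%, against 8.69% over all 13920 detected genes and 5.76% over the 2661 with a mean of at least 1000 counts. It ran from 3.49% for HK1 to 9.39% for SLC2A1, and the counting error, from 0.799% for GAPDH to 4.54% for SLC2A1, was smaller in each case. Replicate 3 decided the median, which was 1.82% without it. In that case the median over all genes was 4.91%.

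Replicate 3 was the lowest library for 8 of the 9 genes, where 41.8% of all genes had their lowest value there. It was the highest for 1 of 9, LDHA, against 38.6% of all genes. The difference of replicate 3 from the mean of replicates 1 and 2 ran from -0.22 for SLC2A1 to 0.15 for LDHA on the log2 scale, with a median of -0.12, against -0.01 for all genes. This difference followed GC content across all genes, with medians of 0.27 and -0.26 in the lowest and the highest of 20 GC bins. LDHA and PGK1 had 44.0% and 43.3% GC in their longest transcripts, and the other 7 had 51.2 to 58.8%. Across the 9 genes, Pearson's r of the difference with GC was -0.65 and Spearman's rho -0.35, a description over genes that share 3 libraries. Without LDHA r was -0.38. With the GC trend of all genes removed from each library, replicate 3 was lowest for 5 of the 9 genes (background 36.5%) and highest for 2 (38.0%), and the median difference was -0.02. Mitochondrial share differed in the same library, and its part was not tested.

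**Figure D4:**
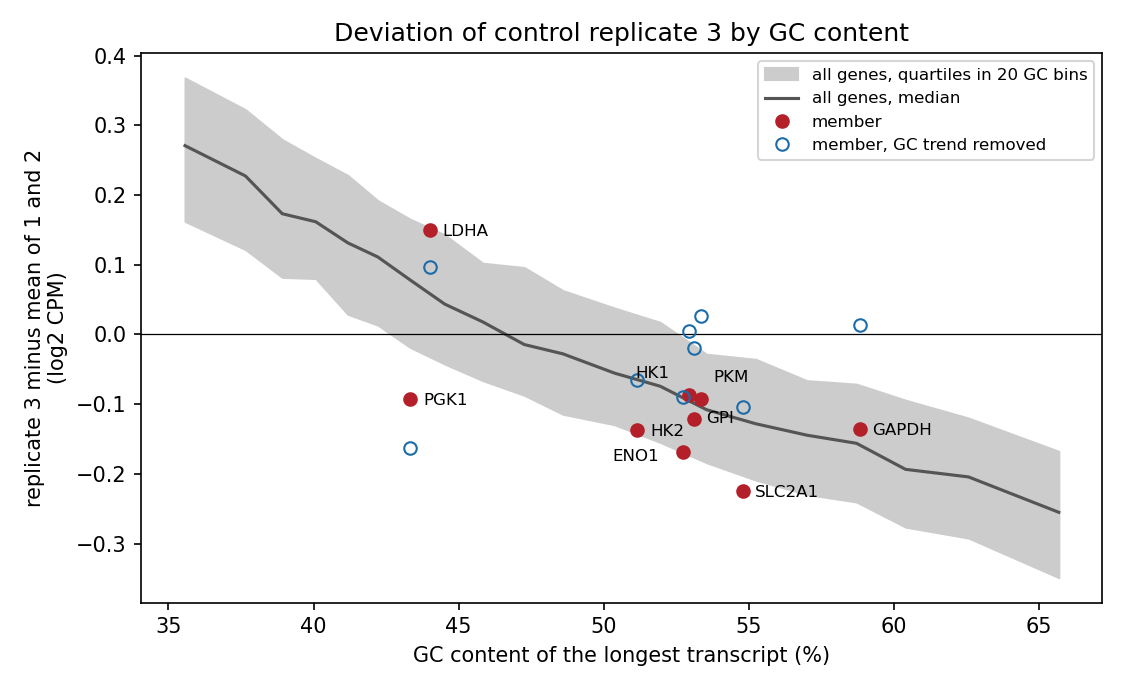
Difference of control replicate 3 from the mean of replicates 1 and 2 (log2 CPM) against GC content of the longest transcript (%), with the median and quartiles of all genes in 20 GC bins; filled points are the 9 detected genes and open points the same after removal of the GC trend. PGK1 lies farthest from the median line of all genes, and LDHA is the only one above 0 before removal.

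LDHA and PGK1 have nearly the same GC content and differed in opposite directions. LDHA had a difference of 0.15 before and 0.10 after removal of the trend. PGK1 had -0.09 before and -0.16 after, and its coefficient of variation went from 3.66% to 6.48%. For the other 8 detected genes the coefficient was lower after removal, and for HK1, PKM, GPI and GAPDH it then lay between 0.930% and 1.27%. For HK1, GPI, HK2 and SLC2A1 it was then below the counting error of 2.08%, 2.03%, 4.34% and 4.54%. For these genes it measures no spread beyond counting. The GC value of PGK1 rests on a longest transcript of 4887 bases with a coding length of 1251.

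Several of these genes serve as internal references in other assays, so their ratios to GAPDH were taken. The count ratio of GPI to GAPDH was 0.154, 0.154 and 0.156 in replicates 1, 2 and 3, a coefficient of variation of 0.590%. For ENO1, PGK1, HK1 and PKM the coefficient lay between 1.56% and 1.96%, and for HK2 and SLC2A1 it was 3.09% and 4.51%. The counting errors of GPI, HK1, HK2 and SLC2A1 alone were 2.03%, 2.08%, 4.34% and 4.54%. The ratios of these genes varied by less, so their coefficients show no stability beyond counting noise. The ratio of LDHA to GAPDH was 0.177, 0.195 and 0.226, a coefficient of 12.5%, which was the largest of the 8. These ratios keep the GC trend, and LDHA has 44.0% GC against 58.8% for GAPDH. With the trend removed, the coefficient of the LDHA level was 4.96%. That of PGK1 was 6.48%, the largest of the 9 detected genes. The ratios were not recomputed after that removal or without replicate 3, so their order holds only for the uncorrected levels of all 3 libraries.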

How the data were processed

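The authors deposited raw gene counts, per the file headers; all values are whole numbers and the totals differ between libraries. The submitters' processing notes name fastp 0.21.1, STAR 2.7.7a, featureCounts and the build GRCh38. Annotation release, strand setting and the treatment of shared reads are not given in the sources used here. Libraries were made with a stranded messenger RNA kit, per the labels' protocols. The 3 count columns that match no sample were not used. 1 of 60710 listed genes had no value. Symbols matched 60436 of 60709 genes by Ensembl identifier without its version. Counts were scaled to CPM with TMM factors (edgeR 4.0.16, R 4.3.3), over totals of 8887854 to 11397407 counts. TPM used the longest GENCODE 29 transcript, known for 58404 genes with 99.9% of the counts. A gene was called detected at 10 counts in every library. The GC trend of a library was its median log2 difference from the mean over libraries in 50 GC bins, over 10290 nuclear genes averaging 100 counts or more. It was removed by interpolation, which was tested on simulated data with a straight GC trend in 1 library. There a coefficient of variation with counting noise subtracted was also tested, in genes with high counts. The coefficients given here have no noise subtracted and were not tested in that form. Shared stretches of 75 and 50 bases were exact matches among GENCODE 29 transcripts, and the read length is not given in the sources used here. Python 3.11.15 with scipy 1.17.1, pandas 2.3.3 and numpy 2.4.6 was used for the rest. Named genes were the 10 members and, in the reaction families, the leading and next gene. In the lists around the pathway they were the highest and the lowest gene. Genes with at most 3 counts in every library could also be named. ENO3, SLC2A4, SLC2A6, SLC2A10, SLC2A11, PFKFB2, PDHX, PDP2, PDK4, HK3, PFKL, TXNIP, SLC16A1, SLC16A3, DLAT and COL3A1 were named after their values were seen. Some genes of the lists are not reported here by name. The members and lists were chosen with earlier results of these data known. A test of peptide against control samples was planned and not run, since its columns could not be matched. Other normalizations, lengths, filters and left-out libraries were tried as alternatives.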

Additional observations from a re-analysis of the deposited data

How the results depend on the processing

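No paired analysis was possible because no column of the table could be tied to a peptide sample. For the same reason the treatment comparison was not made, nor its other settings (RLE factors, no filter, DESeq2, left-out replicates, replicate block). The share of counts held by the 10 genes was 0.539% with mitochondrial genes left out, which follows from the smaller total. It was 0.505 to 0.527% with 1 library left out, and 0.527% without replicate 3. Transcript length moved the family shares most. With the median transcript length they were 50.9% for SLC2A1, 96.2% for HK1, 59.4% for ALDOC, 86.7% for ENO1 and 94.7% for LDHA. With coding length they were 35.1% for SLC2A1, 79.7% for HK1, 35.0% for PFKP, 60.8% for ALDOC, 84.6% for ENO1 and 94.5% for LDHA. With raw counts they were 33.8% for SLC2A1, 80.5% for HK1, 33.5% for PFKP, 57.5% for ALDOC, 84.6% for ENO1 and 94.9% for LDHA. Under every length the ALDOC and LDHA shares keep the limit from shared sequence given above. With 1 library left out, which in a group of 3 cannot move a mean by 1 SD, the shares ranged as follows: SLC2A1 29.9 to 31.7%, HK1 84.7 to 85.3%, PFKP 43.4 to 44.6%, ALDOC 62.1 to 64.0%, ENO1 85.1 to 85.2% and LDHA 91.6 to 92.6%. Without replicate 3 the shares were 31.7% for SLC2A1, 84.7% for HK1, 44.6% for PFKP, 62.1% for ALDOC, 85.2% for ENO1 and 92.6% for LDHA. The median coefficient of variation of the 9 genes was 1.82 to 6.97% with 1 library left out, lowest without replicate 3. It was 3.55 to 5.66% under the other 3 settings. Over all genes it was 4.91 to 9.28% with 1 library left out, 12.1% at a minimum of 1 count and 6.40% with the GC trend removed, an alternative chosen after seeing the data. Of 39 CPM values of single genes under the other settings, 4 moved by more than 1 SD, as did 16 of 20 TPM values with another length. Depth limits SLC2A3, where changes within the 3-count floor were not detectable.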
